A study of Mus musculus with 7 samples.

Results

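The cone phototransduction genes are 10 genes that encode the light-sensing cascade of cone photoreceptors, and their rows were taken by symbol from a table of 21861 gene rows. All 10 were found, each on 1 row: the visual pigments Opn1sw and Opn1mw, the arrestin Arr3, the transducin subunits Gnat2, Gnb3 and Gngt2, the phosphodiesterase subunits Pde6c and Pde6h, and the channel subunits Cnga3 and Cngb3. They were measured in RNA-seq libraries of retinal pigment epithelium (RPE) from aged mice, taken 12 weeks after an adeno-associated virus (AAV) had delivered GFP (AAV-GFP, 3 libraries) or the glutathione transferase GSTA4 (AAV-GSTA4, 4 libraries). Every animal thus carried a vector, and AAV-GFP was the control. Strain, sex, exact age, vector promoter, dose, and whether a library pooled animals are not given in the sources used here, so p-values measure the spread between libraries, which may in part be technical.

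In a cone, light turns an opsin into an active receptor, which switches on the G protein transducin. Transducin releases the phosphodiesterase from its inhibitory subunit, the enzyme breaks down cyclic GMP, and the cyclic-GMP-gated channel closes. Arrestin then quenches the opsin. Rods run the same cascade on paralogous proteins, and most photoreceptors of the mouse retina are rods. The RPE faces the outer segments of both cell types and engulfs their shed tips, but does not itself run the cascade. In bulk RNA, fewer cells of a type and less RNA per cell cannot be told apart.

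Total counts ran from 15329181 to 28998964 per library. The vector-borne hGSTA4 row had 1 to 3 counts in the AAV-GFP libraries and 45 to 5239 counts in the AAV-GSTA4 libraries (45 in replicate 3). For d2EGFP, replicates 2 and 3 of AAV-GFP stood at 3970 and 2361 counts and AAV-GSTA4 at 7 to 163 counts. The library labelled AAV-GFP replicate 1 had 99 d2EGFP counts, inside the AAV-GSTA4 range, and 3 hGSTA4 counts. Thus d2EGFP did not set it apart from AAV-GSTA4, whereas hGSTA4 did. Counts of cone genes without this library are given where they move. Of 12 RPE markers, 11 averaged above 70 CPM (depth-scaled counts, corrected by trimmed means) in both groups. Best1 was the exception: AAV-GFP averaged 2.27 CPM ± 1.04 (SD, n = 3) and AAV-GSTA4 averaged 2.46 CPM ± 1.00 (SD, n = 4). The summed RPE markers lay between 22496 and 69980 CPM in AAV-GFP and between 60661 and 110732 CPM in AAV-GSTA4. AAV-GFP replicate 3 stood apart, with a scaling factor of 1.36 against 0.868 to 1.05 in the other 6 libraries, the lowest RPE sum and the highest rod sum. Without it, the median log2 fold change of the 10 cone genes was -0.65 and that of the rod counterparts -0.76. That of the RPE markers was then 0.32, and that of the bipolar cell markers -0.60.

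The promoters of the opsins are shown first, because the levels of the 2 opsins separated within libraries. Each line gives the 250 bases before the RefSeq start site (GRCm38.p6), read on the gene's strand. Capitals mark the motif AGGTCA of nuclear receptors or its reverse complement TGACCT, and the 6-base core TAATCC of the photoreceptor factors CRX and OTX2 or its reverse complement GGATTA. Opn1sw lies at chr6:29380514-29380763 on the minus strand and Opn1mw at chrX:74127216-74127465 on the plus strand.
Opn1sw: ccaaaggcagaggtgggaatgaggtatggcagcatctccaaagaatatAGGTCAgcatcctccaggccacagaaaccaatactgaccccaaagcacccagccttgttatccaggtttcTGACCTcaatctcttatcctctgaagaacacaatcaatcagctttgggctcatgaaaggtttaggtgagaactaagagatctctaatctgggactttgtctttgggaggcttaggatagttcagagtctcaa
Opn1mw: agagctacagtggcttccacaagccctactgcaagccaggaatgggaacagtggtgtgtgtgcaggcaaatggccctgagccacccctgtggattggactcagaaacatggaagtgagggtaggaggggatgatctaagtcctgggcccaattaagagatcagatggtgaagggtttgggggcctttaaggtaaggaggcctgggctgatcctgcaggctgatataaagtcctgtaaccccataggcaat
The Opn1sw window held 2 copies of AGGTCA, ending 197 and 127 bases before the start, and the Opn1mw window held none. Of 32851 windows of this length, 14.0% held AGGTCA on either strand and 6.25% held the TAATCC core. Windows were found for 6 of the 10 cone genes (7 windows). Among them only Gnat2 held the core, 14 bases before its start, and only Opn1sw held AGGTCA. For comparison, 4 of the 6 rod counterparts with a window held the core and 3 held AGGTCA. Some windows with the core overlapped annotated exons: all 250 bases for Gnat2 and the rod gene Cnga1, and 216 bases for the rod gene Gngt1. These matches are letters in a window and do not show binding.

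The cone genes had lower fitted levels in AAV-GSTA4 than in AAV-GFP, but none passed the test across all genes. All 10 passed the expression filter, and all 10 had a log2 fold change below 0, where 55.4% of the 15075 genes tested did. Their median log2 fold change was -1.02, against -0.07 over all genes. After Benjamini-Hochberg adjustment, 0 of the 10 passed 0.05 in the quasi-likelihood test of edgeR, as did 0% of all genes. At an unadjusted p under 0.05 there were 5 members, all lower (Opn1mw, Gnat2, Gnb3, Gngt2 and Pde6h), where 6.63% of all genes were lower by that rule. That count was 6 without AAV-GFP replicate 1, the library low in d2EGFP. It was 3 without AAV-GFP replicate 3, 3 without AAV-GSTA4 replicate 3 and 3 without AAV-GSTA4 replicate 4. With any other library left out it was 4. DESeq2 called 3 members after adjustment (Gngt2, Opn1mw and Pde6h), where it called lower 0.825% of the 10062 genes to which it gave an adjusted p, and limma-voom called 0. Of the members, 3 had every AAV-GSTA4 library below every AAV-GFP library, where 5.61% of all genes did. The number was 6 without the library labelled AAV-GFP replicate 1, the one low in d2EGFP. Leaving out a library can only keep or raise this number, and the share of all genes without that library is not given here.

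**Figure D1:**
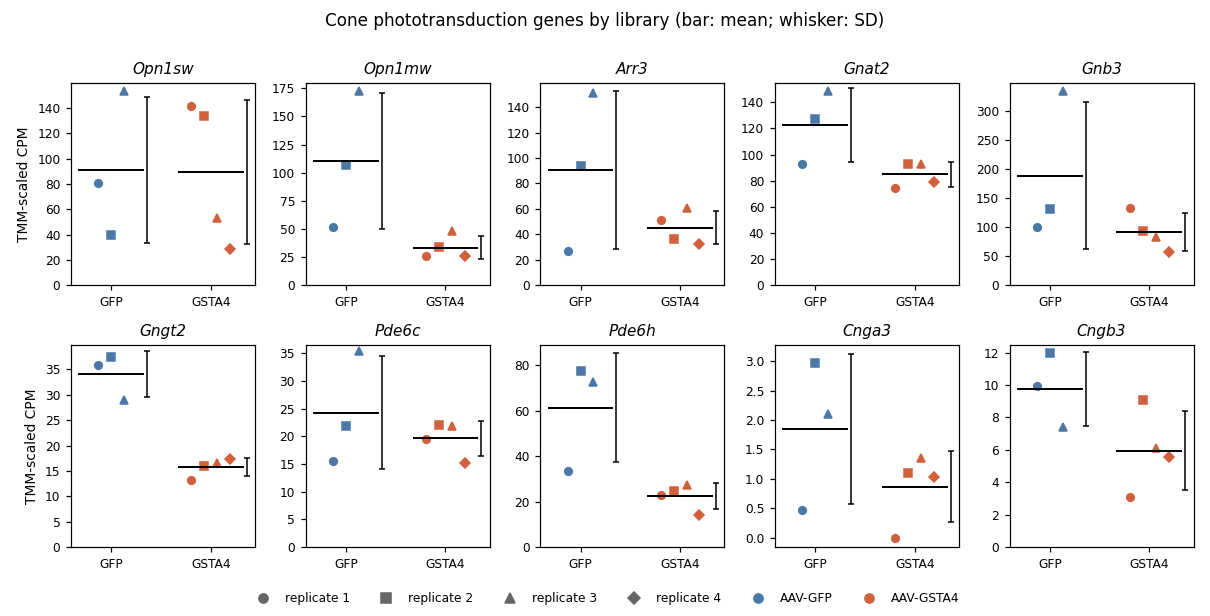
Level of each cone gene in every library, as CPM scaled by trimmed means on linear axes; points are libraries, bars are group means and whiskers are SDs (3 AAV-GFP and 4 AAV-GSTA4 libraries). Opn1mw, Gngt2 and Pde6h have no AAV-GSTA4 library above an AAV-GFP library, whereas Opn1sw spans the same range in both groups.

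Summed over the 10 genes, the level was 448, 650 and 1106 CPM in AAV-GFP replicates 1 to 3. It was 486, 463, 410 and 277 CPM in AAV-GSTA4 replicates 1 to 4. The groups overlapped, because AAV-GFP replicate 1 lay below AAV-GSTA4 replicates 1 and 2. The means were 735 CPM ± 337 (SD, n = 3) and 409 CPM ± 93.5 (SD, n = 4). The difference of -325 CPM became -469 CPM without AAV-GFP replicate 1 and -140 CPM without AAV-GFP replicate 3. Of the 10 genes, 6 were highest in AAV-GFP replicate 3. AAV-GFP replicate 2 was the highest for the other 4, so no AAV-GSTA4 library was the highest of the 7 for any member. AAV-GSTA4 replicate 4 was the lowest for 5 members and AAV-GSTA4 replicate 1 for 4.

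The visual pigments differed from each other. Opn1mw encodes the middle-wavelength opsin and Opn1sw the short-wavelength opsin; mouse cones express them in opposing gradients from the upper to the lower retina, and many cones hold both. Opn1mw was at 51.5, 106 and 172 CPM in AAV-GFP replicates 1 to 3. In AAV-GSTA4 replicates 1 to 4 it was at 26.3, 33.8, 48.1 and 25.9 CPM. Every AAV-GSTA4 library lay below every AAV-GFP library, although the highest of the first, at 48.1 CPM, was close to the lowest of the second, at 51.5 CPM. Its log2 fold change of -1.71 ± 0.39 (SE) had an adjusted p of 0.363 in edgeR's test. Without AAV-GFP replicate 3 it was -1.24, and DESeq2 gave an adjusted p of 0.0124.

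Opn1sw was at 80.7, 39.6 and 153 CPM in AAV-GFP replicates 1 to 3. In AAV-GSTA4 replicates 1 to 4 it was at 141, 134, 53.3 and 29.0 CPM. High and low libraries occurred in both groups, and the means were 91.2 CPM ± 57.6 (SD, n = 3) and 89.4 CPM ± 56.7 (SD, n = 4). Its log2 fold change of -0.03 ± 0.58 (SE) had an adjusted p of 0.990 in edgeR's test and turned to 0.58 without AAV-GFP replicate 3. An SE of this size leaves sizeable changes in either direction undetectable. The Opn1sw gene shares 397 exon bases with Calu on the other strand, and the library kit named in the labels does not mark strand. Calu was at 150 to 305 CPM in AAV-GFP and 272 to 454 CPM in AAV-GSTA4.

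Within a library, the balance of the 2 opsins does not depend on how libraries are scaled. Opn1sw held 61.0% of the opsin counts in AAV-GFP replicate 1 (95% Wilson interval 59.2 to 62.8%), 27.1% in replicate 2 (25.7 to 28.6%) and 47.1% in replicate 3 (45.9 to 48.3%). It held 84.3% in AAV-GSTA4 replicate 1 (83.0 to 85.6%) and 79.8% in replicate 2 (78.5 to 81.1%). In replicates 3 and 4 it held 52.5% (50.2 to 54.9%) and 52.9% (50.3 to 55.4%). The intervals cover counting error only, since no molecular identifiers are named. The AAV-GSTA4 libraries thus split into 2 at about 80% and 2 near 50%, and AAV-GFP replicate 1 lay between them. The first pair was low in Y-linked counts and the second pair was high in them, so opsin balance and this class moved together within AAV-GSTA4; in AAV-GFP, the library high in Y-linked counts had the highest Opn1sw share. The part of this class in the opsin balance was not tested.

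**Figure D2:**
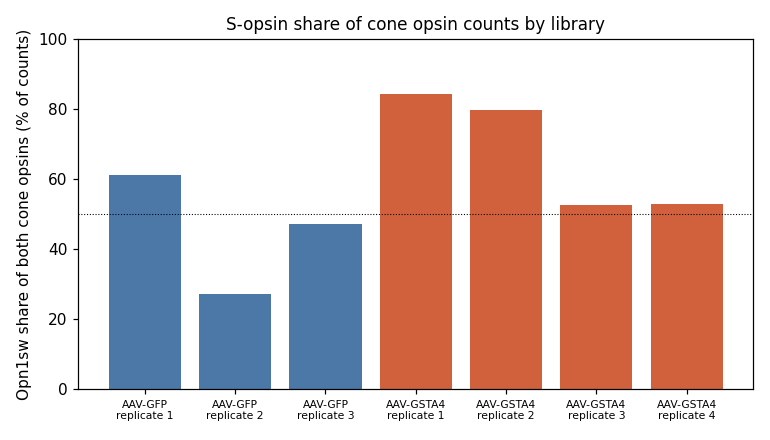
Share of Opn1sw in the summed Opn1sw and Opn1mw counts of each library, in percent, with bars from 0 and a dotted line at 50%. AAV-GSTA4 replicates 1 and 2 stand at 84.3% and 79.8%, and AAV-GFP replicate 2 is lowest at 27.1%.

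Arr3, the cone arrestin, was at 27.3, 93.9 and 151 CPM in AAV-GFP replicates 1 to 3. In AAV-GSTA4 replicates 1 to 4 it was at 51.2, 36.2, 60.5 and 32.8 CPM. AAV-GFP replicate 1 was the lowest of all 7 libraries, and the other AAV-GFP libraries were the highest. The log2 fold change of -1.01 ± 0.47 (SE) had an adjusted p of 0.434 in edgeR's test. It became -1.43 without AAV-GFP replicate 1 and -0.43 without AAV-GFP replicate 3.

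The transducin subunits differed in how far the groups stood apart. Gnat2, the alpha subunit that binds GTP, was at 92.7, 127 and 148 CPM in AAV-GFP and at 74.6, 92.8, 93.0 and 79.1 CPM in AAV-GSTA4. The groups met at 92.7 to 93.0 CPM. The fit gave a log2 fold change of -0.53 ± 0.22 (SE), adjusted p = 0.397 in edgeR's test. Without AAV-GFP replicate 3 it was -0.37, with an unadjusted p of 0.0996 in edgeR's test.

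Gnb3, the beta subunit of cones, is also used by ON bipolar cells of the inner retina. It was at 101, 131 and 334 CPM in AAV-GFP and at 134, 93.4, 82.3 and 57.2 CPM in AAV-GSTA4. The fit gave a log2 fold change of -1.04 ± 0.43 (SE), adjusted p = 0.395 in edgeR's test, and -0.34 without AAV-GFP replicate 3, by far its highest library. Of 8 bipolar cell markers, all 8 had a log2 fold change below 0, where 55.4% of all genes did, with a median of -0.99. At an unadjusted p under 0.05, 3 were lower, where 6.63% of all genes were. The count was 2 without AAV-GFP replicate 3, where 5.74% of all genes were lower. Pcp2, a marker of ON bipolar cells, was at -1.35 ± 0.38 (SE), and Grm6, their glutamate receptor, at -2.22 ± 0.87 (SE). Neither passed after adjustment in edgeR's test, at 0.363 and 0.383. Grm6 was at 6.61, 6.94 and 62.6 CPM in AAV-GFP replicates 1 to 3 and at 2.52 to 12.5 CPM in AAV-GSTA4. The summed level of the 8 was 660 to 767 CPM in AAV-GFP and 251 to 563 CPM in AAV-GSTA4, and none was at 0 in any library. Trpm1, a channel gene of ON bipolar cells that is also expressed in pigment cells, was at 332 to 548 CPM in AAV-GFP and 174 to 449 CPM in AAV-GSTA4. Within AAV-GFP it was lowest in replicate 3, where Gnb3 was highest. Without Trpm1, a choice made after the values were seen, the sum was 199, 176 and 435 CPM in AAV-GFP and 236, 114, 76.2 and 91.9 CPM in AAV-GSTA4, and the groups overlapped. The part of bipolar cells in the Gnb3 difference was not tested.

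Gngt2, the cone gamma subunit, varied little within either group. It was at 35.9, 37.5 and 29.0 CPM in AAV-GFP and at 13.1, 16.0, 16.5 and 17.4 CPM in AAV-GSTA4, with a wide gap between the groups. The coefficients of variation were 13.2% and 11.7%, and for the other 9 genes they ran from 22.9% to 68.8% in AAV-GFP and from 11.1% to 68.5% in AAV-GSTA4. The fit gave a log2 fold change of -1.11 ± 0.22 (SE), adjusted p = 0.363 in edgeR's test and 0.00742 in DESeq2. Over the 7 fits that each left out 1 library it ran from -1.22 to -1.02. Gngt2 had been singled out earlier from these data for its small p-value, so this separation is a description.

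The Gngt2 gene (chr11:95837216-95845734, GRCm38) overlaps Abi3 on the other strand, with 234 shared exon bases. Abi3 was at 0.0959 to 1.00 CPM in AAV-GFP and 0.526 to 0.811 CPM in AAV-GSTA4. Gngt2 transcripts are also known from myeloid cells. Of 12 macrophage and microglia markers, 11 had a log2 fold change below 0, where 55.4% of all genes did. At an unadjusted p under 0.05, 2 were lower (C1qc and Aif1) and 1 was higher (Csf1r). By that rule 6.63% of all genes were lower and 5.27% higher. The median log2 fold change of the 12 was -0.40. Their summed level was 511 to 975 CPM in AAV-GFP and 734 to 994 CPM in AAV-GSTA4, with none at 0 in any library. Csf1r alone was at 127 to 258 CPM in AAV-GFP and 290 to 567 CPM in AAV-GSTA4. Without it, also chosen after the values were seen, the sum was 529, 735 and 384 CPM in AAV-GFP and 327, 444, 427 and 399.6 CPM in AAV-GSTA4. Without AAV-GFP replicate 3, 5 of the 12 were lower and 1 higher by the unadjusted rule, with a median of -0.57, where 5.74% of all genes were lower. Their part in the Gngt2 difference was not tested.

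Of the phosphodiesterase subunits, the inhibitory one separated the groups and the catalytic one did not. Pde6h encodes the inhibitory subunit of the cone enzyme. It was at 33.6, 77.5 and 72.7 CPM in AAV-GFP and at 23.1, 24.6, 27.2 and 14.1 CPM in AAV-GSTA4, with no overlap. The fit gave a log2 fold change of -1.46 ± 0.33 (SE), adjusted p = 0.363 in edgeR's test and 0.0201 in DESeq2. The Pde6h gene shares 136 exon bases with Arhgdib on the other strand; Arhgdib was at 25.5 to 75.1 CPM in AAV-GFP and 19.9 to 59.9 CPM in AAV-GSTA4.

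Pde6c, the catalytic subunit, was at 15.6, 21.8 and 35.5 CPM in AAV-GFP and at 19.5, 22.1, 21.8 and 15.2 CPM in AAV-GSTA4. The AAV-GSTA4 libraries lay inside or just under the AAV-GFP range. The log2 fold change of -0.31 ± 0.31 (SE), adjusted p = 0.715 in edgeR's test, turned to 0.07 without AAV-GFP replicate 3.

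The channel subunits were the least abundant. Cngb3 was at 9.92, 12.0 and 7.39 CPM in AAV-GFP and at 3.10, 9.06, 6.11 and 5.57 CPM in AAV-GSTA4, a log2 fold change of -0.71 ± 0.41 (SE) with an adjusted p of 0.502 in edgeR's test. Cnga3 had 10, 77 and 44 counts in AAV-GFP and 0, 23, 23 and 28 counts in AAV-GSTA4. The 0 in AAV-GSTA4 replicate 1 allows up to 0.158 CPM at the floor of 3 counts. Its log2 fold change of -1.08 ± 1.13 (SE), adjusted p = 0.727 in edgeR's test, did not exceed its own error.

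The levels of the 10 members were set against each other as CPM per kilobase of the annotated principal transcript, averaged over the 7 libraries. Gnb3 stood at 72.2, Opn1mw at 54.0, Gnat2 at 49.2, Arr3 at 47.6, Gngt2 at 47.4 and Opn1sw at 37.4 CPM per kilobase. From Opn1mw down to Opn1sw, neighbours in this order exchanged places between libraries: each held its place over the next in 2 to 4 of 7 libraries. The order also differed by group: Opn1mw was at 89.7 CPM per kilobase in AAV-GFP, second to Gnb3, and at 27.3 in AAV-GSTA4, below 5 other members. Opn1sw was at 37.9 and 37.1 CPM per kilobase, below 5 members in AAV-GFP and below 2 in AAV-GSTA4. Pde6c followed at 8.36, Cngb3 at 1.61 and Cnga3 at 0.619 CPM per kilobase. Opn1sw exceeded Pde6c, and Cngb3 exceeded Cnga3, in 7 of 7 libraries. The order depends on the length used. Pde6h was at 6.56 CPM per kilobase over an annotated transcript of 5940 bases. Per kilobase of coding sequence it was at 157 CPM, the highest of the 10 on that scale. Gnb3 was at 131 and Gngt2 at 114 CPM per coding kilobase. Opn1sw, whose annotated transcript has 2410 bases, was at 86.9 on the coding scale, above Opn1mw at 61.6 and Arr3 at 56.6. The order of the 2 opsins was thus reversed.

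Each cone gene was then set against its rod counterpart. The 10 rod counterparts all had log2 fold changes below 0, from -1.44 (Pde6a) to -0.82 (Gnb1), with a median of -1.15. All 10 were lower at an unadjusted p under 0.05, where 6.63% of all genes were, and 0 after adjustment in edgeR's test. Without AAV-GFP replicate 3, 6 of the 10 were lower by the unadjusted rule, where 5.74% of all genes were. In the main analysis, 6 were lower with no overlap between groups, where 5.61% of all genes were. Gngt1, the rod transducin gamma subunit, was at 1860, 2108 and 1563 CPM in AAV-GFP and at 796, 712, 998 and 455 CPM in AAV-GSTA4, with no overlap. Ratios to rod genes were not corrected for transcript length, so they compare libraries and do not give the relative abundance of the genes. The cone sum was 3.00%, 2.55% and 2.84% of the rod sum in AAV-GFP and 3.48%, 3.88%, 3.16% and 3.49% in AAV-GSTA4. On this ratio every AAV-GSTA4 library lay above every AAV-GFP library. Without Opn1sw, a choice made after the values were seen, it was 2.46%, 2.40% and 2.44% in AAV-GFP and 2.46%, 2.75%, 2.75% and 3.12% in AAV-GSTA4, so the groups met at 2.46%. The direction was not shared by every pair. The mean log2 ratio was lower in AAV-GSTA4 by a difference of -0.12 for Gnb3, -0.20 for Pde6h and -0.58 for Cnga3. With each library left out, the difference for Pde6h stayed between -0.30 and -0.11. Those for Gnb3 and Cnga3 changed sign, from -0.41 to 0.22 and from -1.13 to 0.75. With 2 counts added in place of 0.5, the Cnga3 difference was -0.11, since AAV-GSTA4 replicate 1 had 0 Cnga3 counts.

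**Figure D3:**
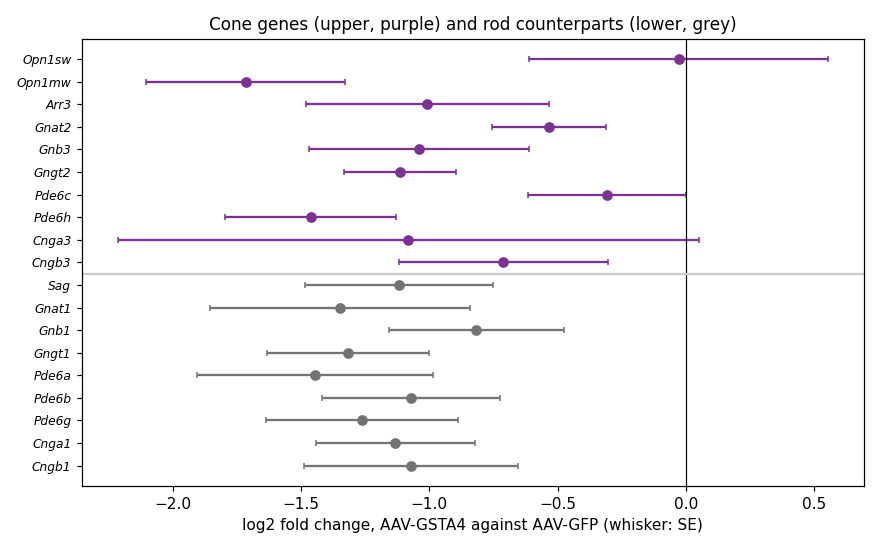
AAV-GSTA4 against AAV-GFP as log2 fold change with SE, for the 10 cone genes and 9 rod counterparts. Rod genes lie between -1.44 and -0.82, whereas cone genes spread from -1.71 (Opn1mw) to -0.03 (Opn1sw).

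Pair by pair, the ratio within a library separated the groups in full for Pde6c alone. Pde6c counts were 2.12%, 1.86% and 1.85% of those of the rod catalytic subunit gene Pde6b in AAV-GFP and 2.79%, 3.33%, 3.54% and 3.34% in AAV-GSTA4. The mean log2 ratio was -5.69 ± 0.11 (SD, n = 3) and -4.95 ± 0.15 (SD, n = 4). Against Pde6a, the other rod catalytic subunit gene, the groups met at 20.0%, in AAV-GFP replicate 1 and AAV-GSTA4 replicate 3. The other 7 pairs plotted all overlapped. Gngt2 stayed near its rod partner Gngt1 in AAV-GFP, at 1.93%, 1.78% and 1.86% of its counts, and was at 1.66%, 2.24%, 1.66% and 3.83% in AAV-GSTA4. Pde6h was at 3.57%, 4.03% and 3.11% of Pde6g, the rod inhibitory subunit gene, in AAV-GFP and at 2.80%, 2.85%, 3.56% and 3.20% in AAV-GSTA4.

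**Figure D4:**
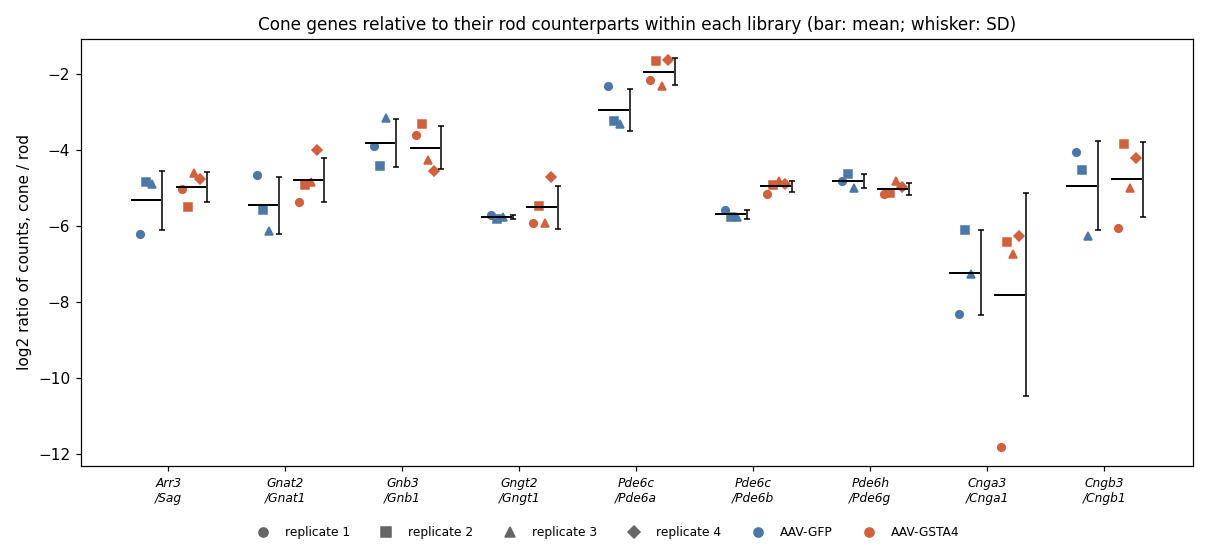
Log2 ratio of counts of cone genes to their rod counterparts in every library, for 9 pairs, with group means and SDs. For Pde6c against Pde6b all 4 AAV-GSTA4 libraries lie above all 3 AAV-GFP libraries, and the isolated low point for Cnga3 is AAV-GSTA4 replicate 1, which had 0 Cnga3 counts.

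With the log2 rod sum as a covariate, 1 of the 10 cone genes was lower at an unadjusted p under 0.05. That gene was Gngt2, with a log2 fold change of -1.38 ± 0.33 (SE) and an adjusted p of 0.501 in edgeR's test. Opn1mw moved to -0.39 and Pde6h to -0.42. Arr3 turned to 0.93, Gnb3 to 0.44, Pde6c to 0.61 and Opn1sw to 1.01, each with an adjusted p of at least 0.553. The rod sum itself did not overlap between groups, at 14931 to 38977 CPM in AAV-GFP and 7945 to 13990 CPM in AAV-GSTA4, so group and rod level cannot be fully told apart.

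Y-linked counts, which split the libraries across both groups, gave a further division. Among libraries with them (1 AAV-GFP, 2 AAV-GSTA4) the mean CPM ratio of AAV-GSTA4 to AAV-GFP was 0.473 for Gngt2, 0.615 for Pde6h and 0.718 for Opn1mw. Among the others (2 and 2) it was 0.438, 0.317 and 0.216. Cngb3 stood at 0.588 with them and 0.629 without, and Opn1sw at 0.510 with them and 1.43 without. The first division rests on 1 AAV-GFP library, the one low in d2EGFP, and the second includes AAV-GFP replicate 3. Between the groups, the Y-linked genes Kdm5d and Uty had log2 fold changes of 0.71 ± 2.14 and 0.45 ± 2.14 (SE), far inside their errors.

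Other genes of the cascade and its recovery went mostly the same way. Of 13 such genes, 11 had a log2 fold change below 0, with a median of -0.97. At an unadjusted p under 0.05, 6 were lower and 0 higher, where 6.63% of all genes were lower. Without AAV-GFP replicate 3, 2 of the 13 were lower and 1 higher, with a median of -0.24. In that fit 5.74% of all genes were lower. Rcvrn, the calcium sensor recoverin, had a log2 fold change of -1.49 ± 0.40 (SE). Guca1a, an activator of the photoreceptor guanylate cyclase, was at -1.22 ± 0.41 (SE). Neither passed after adjustment in edgeR's test, at 0.363 and 0.364. Of 5 photoreceptor transcription factors and cone-enriched genes, 2 were lower at an unadjusted p under 0.05. They were Crx, a regulator shared by rods and cones, at -1.12 ± 0.41 (SE), and Ccdc136 at -0.90 ± 0.33 (SE). Without AAV-GFP replicate 3, 0 of the 5 were lower by that rule, with a median of -0.19. Thrb and Rxrg, nuclear receptors that act in cone identity, were at 0.16 ± 0.22 and 0.80 ± 0.63 (SE). The Rxrg value rested on AAV-GSTA4 replicate 2, at 48.7 CPM. The other AAV-GSTA4 libraries were at 6.93 to 12.6 CPM and AAV-GFP at 8.64 to 13.8 CPM. Of 6 outer segment structure genes, 3 were lower by the same rule. Prom1 was at -0.996 ± 0.28 (SE) and Prph2 at -1.24 ± 0.42 (SE). Without AAV-GFP replicate 3, 1 of the 6 was lower, with a median of -0.41.

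RPE markers went the other way in 11 of 12 genes, with a median log2 fold change of 0.69. By the unadjusted rule 4 were higher, where 5.27% of all genes were; Lrat, which esterifies retinol, was at 1.15 ± 0.37 (SE) and Slc6a20a, an amino acid transporter, at 1.13 ± 0.43 (SE). Of 6 Mueller glia markers 1 was lower by that rule, where 6.63% of all genes were, and their median was -0.40. Slc1a3, a glutamate transporter, was at -1.43 ± 0.58 (SE) and Aqp4, a water channel, at -0.85 ± 0.57 (SE). In AAV-GFP replicates 1 to 3, Slc1a3 was at 36.8, 23.6 and 139 CPM, and in AAV-GSTA4 at 13.7 to 40.7 CPM. Without AAV-GFP replicate 3, 0 of the 6 were lower by that rule, with a median of -0.04. The part of RPE and Mueller glia in the cone gene differences was not tested.

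The genes outside these lists that ran most nearly parallel to the cone sum were sought among 11031 genes whose log2 CPM averaged 2 or more. They were H2bu2, Hk2, Aipl1, Vopp1 and Neurod1, with Pearson r from 0.990 to 0.993 over 7 libraries on the log2 scale. All values of a library share its depth and scaling, so r is a description. Aipl1 is a chaperone of the photoreceptor phosphodiesterase, Neurod1 a transcription factor of photoreceptors, and Hk2 a hexokinase. Aipl1 averaged 241 CPM in AAV-GFP and 104 CPM in AAV-GSTA4, with a log2 fold change of -1.21 ± 0.41 (SE) and an adjusted p of 0.364 in edgeR's test.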

How the data were processed

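The authors deposited raw read counts per gene symbol and library; the submitters' processing notes name STAR 2.7.1a and featureCounts 1.6.2 and, among the builds, GRCm38. Annotation, strand setting and the rule for multi-mapping reads are not given in the sources used here. Every column was matched to a sample by library name. The counts were fitted with edgeR 4.0.16 (R 4.3.3): quasi-likelihood test with robust fitting, group as the only factor, TMM scaling, default expression filter, and Benjamini-Hochberg adjustment over all 15075 genes tested. SEs of log2 fold changes were derived from the F statistic. Ratios to rod genes used counts plus 0.5. Gene overlaps and lengths are from GENCODE M21 (GRCm38), promoters from RefSeq (GRCm38.p6). The fit was tested on simulated counts.

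Members, gene lists and tests were chosen with earlier results of these data known. Named were all members, their rod counterparts (1 is not reported here on its own), the 2 smallest p-values of each other list, and the 5 genes most parallel to the cone sum; a few further genes were named after their values were seen. Alternatives were DESeq2 1.42.0, limma-voom (limma 3.58.1), 2 scalings, 2 filters, replicate blocks, a rod covariate, a Y-linked term and each library left out. Added after the values were seen were list medians and counts without AAV-GFP replicate 3 and sums without Trpm1, Csf1r or Opn1sw. Equal replicate numbers are not stated to pair animals.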

Additional observations from a re-analysis of the deposited data

Results flagged for a closer look

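The Cnga3 to Cnga1 log2 ratio was isolated in AAV-GSTA4 replicate 1, at -11.80 against -6.74 to -6.27 in the other 3 libraries of its group; its gap was 0.915 of the group's range. That library had 0 Cnga3 counts, so the value is set by the 0.5 counts added. Isolated libraries were sought in 23 results, within AAV-GSTA4 only, and this was the 1 found. Chance flags about 5%. The AAV-GFP libraries were not screened in this way.

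Arr3 and Cnga3 went opposite ways in the divisions by Y-linked counts. Among libraries with Y-linked counts the AAV-GSTA4 to AAV-GFP ratio of mean CPM was 1.71 for Arr3 and 2.56 for Cnga3, resting on 1 AAV-GFP library. Among the others it was 0.357 and 0.217, with no overlap between groups in either division. The difference between the divisions was not tested.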

How the results depend on the processing

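The number of cone genes past the adjusted threshold was 0 in edgeR's test, from 0 to 0 with each library left out, and 3 with DESeq2; the cause was not tested. The number lower at an unadjusted p under 0.05 was 5 in the main analysis, 1 with the rod covariate and from 3 to 6 with each library left out. With a replicate block it was 3 by title number and 3 by library number. Equal title numbers correlated at -0.09, 0.00 and 0.01 after group means were removed, and equal library numbers at -0.09, 0.01 and -0.13. With so few libraries per group, these values cannot decide whether animals were paired. With either block, 0 members passed after adjustment. The number without overlap was 3, 5 with library totals and from 3 to 6 with each library left out, which can only keep or raise it. Library totals moved the median of all genes from -0.07 to -0.37. The sign turned for Opn1sw without an expression filter (0.010), with the block by title number (0.40), with the rod covariate (1.01) and within -0.38 to 0.58 with each library left out. It turned for Pde6c with the rod covariate (0.61) and within -0.54 to 0.069 with each library left out, and with the rod covariate for Arr3 (0.93) and Gnb3 (0.44). The other 6 members kept a log2 fold change below 0 under every alternative run. The Cnga3 ratio to Cnga1 could not be computed without an added count. At 0 to 77 counts, depth limits Cnga3 in particular.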
